A study of Mus musculus with 17 samples.

Results

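Border macrophages of the mouse choroid plexus were followed through 10 marker genes, Mrc1, Lyve1, Cd163, Pf4, F13a1, Ms4a7, Folr2, Stab1, Cbr2 and Csf1r, in RNA sequencing of whole plexus tissue. The genes were chosen by name, and each symbol had a single Ensembl identifier among the 55487 gene rows of the count table, which gave 10 of 55487. All 10 were among the 16851 genes that passed the filter on low counts and were tested. The 17 libraries were made with a SMART-Seq v4 kit from lateral ventricle plexus of C57BL/6 mice. They comprised 5 controls (CTRL), 4 libraries taken after 1 day of dextran sodium sulfate (T1), 4 after 3 days (T3), and 4 after 3 days followed by 2 days on water (T5). Dextran sodium sulfate (DSS) is a polymer given in drinking water that injures the lining of the colon, and it is widely used to induce colitis in mice. The labels name no mutant allele or transgene in any group, and they give neither age nor sex, nor whether tissue of several animals was pooled.

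Border macrophages, also called border-associated or CNS-associated macrophages, are resident macrophages of the meninges, the perivascular spaces and the choroid plexus. In the plexus they lie in the stroma between fenestrated vessels and epithelium and on the fluid-facing surface of the epithelium. They take up debris, proteins and lipids through scavenger and lectin receptors, and they depend on signalling through Csf1r. Mouse border macrophages are commonly divided into cells with high Lyve1, Cd163 and Folr2 and cells with high MHC class II. None of the 10 genes belongs to macrophages alone: Csf1r is also a microglial gene, Pf4 and F13a1 are abundant in platelets and megakaryocytes, Lyve1 marks lymphatic endothelium, and Stab1 is made by some endothelial cells.

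The promoters of the marker genes were examined because most of the genes varied together between libraries. RefSeq windows of 300 bases, 250 before and 50 after the annotated start on GRCm38.p6, were used for 8 of the 10 genes, 11 windows in all. The hexamer GAGGAA, the core bound by the macrophage transcription factor PU.1, was searched on both strands and lay in at least 1 window of 6 of the 8 genes, namely Mrc1, Pf4, Cbr2, F13a1, Stab1 and Ms4a7. It was present in 7 of the 11 windows and in 28.3% of all 32851 promoter windows of the same length. TGCTGA, the core of the element bound by MAF factors, lay in windows of 3 of the 8 genes, Folr2, Cbr2 and Stab1, in 4 of the 11 windows and in 19.5% of all windows. The 2 motifs have no overlapping match in these windows. Mrc1, Stab1 and F13a1 are shown because they were among the genes most alike across libraries, and Folr2 because it was among the least alike. These windows do not stand for all 8 genes. Ms4a7, whose median r with the other marker genes was the lowest at 0.22, held 1 GAGGAA match, and Cd163, at 0.48, held none. No relation between matches and the pattern across libraries was tested. Each window is written 5′ to 3′ on the strand of its gene, and capitals mark GAGGAA or its reverse complement TTCCTC.
Mrc1, chr2:14229164-14229463, plus strand: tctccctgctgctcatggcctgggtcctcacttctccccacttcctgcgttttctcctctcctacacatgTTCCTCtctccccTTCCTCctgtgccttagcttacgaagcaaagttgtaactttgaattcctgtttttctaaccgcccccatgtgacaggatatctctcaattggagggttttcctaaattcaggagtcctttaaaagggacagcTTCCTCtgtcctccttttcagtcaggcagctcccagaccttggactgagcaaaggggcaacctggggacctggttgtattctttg
Stab1, chr14:31168592-31168891, minus strand: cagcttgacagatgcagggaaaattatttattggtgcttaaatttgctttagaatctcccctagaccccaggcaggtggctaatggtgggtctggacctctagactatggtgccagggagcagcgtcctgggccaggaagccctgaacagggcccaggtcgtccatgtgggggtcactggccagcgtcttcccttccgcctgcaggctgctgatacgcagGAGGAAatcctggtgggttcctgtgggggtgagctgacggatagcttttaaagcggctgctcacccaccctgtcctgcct
F13a1, chr13:37050195-37050494, minus strand: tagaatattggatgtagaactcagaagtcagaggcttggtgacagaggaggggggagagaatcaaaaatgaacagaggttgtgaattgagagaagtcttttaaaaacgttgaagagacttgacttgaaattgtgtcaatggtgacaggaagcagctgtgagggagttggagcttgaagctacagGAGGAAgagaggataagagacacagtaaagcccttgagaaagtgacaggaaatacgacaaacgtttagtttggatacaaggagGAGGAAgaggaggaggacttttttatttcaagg
Folr2, chr7:101857141-101857440, minus strand: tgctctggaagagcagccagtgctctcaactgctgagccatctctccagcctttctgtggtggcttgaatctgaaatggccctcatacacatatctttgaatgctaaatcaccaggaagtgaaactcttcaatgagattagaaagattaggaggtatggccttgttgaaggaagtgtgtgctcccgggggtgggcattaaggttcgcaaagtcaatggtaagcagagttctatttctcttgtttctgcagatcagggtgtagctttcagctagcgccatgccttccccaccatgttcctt
Mrc1 held 3 matches, beginning at -180, -167 and -35 from the start, F13a1 held 2, at -66 and 18, Stab1 held 1, at -30, and Folr2 held none. A match is a description of the letters and was not tied to any binding measured here.

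Library totals ran from 8875921 to 26839417 counts. Levels are given as CPM, the reads of a gene per 1000000 reads of its library after trimmed-mean (TMM) scaling, and a fold change is on the log2 scale from edgeR's quasi-likelihood model over all 17 libraries. Each library has a number in its title, and this number is 28 or above in 4 of them: T1 replicates 2, 3 and 4 and T3 replicate 4. These 4 had 1.86 to 2.04% mitochondrial counts, below every other library, and T1 had only 1 library outside the high numbers. The number range and day 1 of DSS are told apart only by that library and by T3 replicate 4. Neither CTRL nor T5 has a library with a high number. T3 replicate 4 had the highest level of the 17 libraries for 4 of the 10 marker genes, and across all genes tested it was highest for 9.16%. T1 replicate 3 was highest for 2 marker genes, against 9.82% of all genes. T3 replicate 4 was among the highest 3 for 9 marker genes and T1 replicate 3 among the highest 2 for 6. The shares of all genes at these wider ranks were not computed, so those counts have no background. Results are also given without these libraries where they change. Brain tissue attached to the plexus also differed between libraries: the summed CPM of 8 oligodendrocyte markers lay between 93.9 and 7080 for CTRL, between 307 and 9250 for T1, between 171 and 992 for T3 and between 452 and 16600 for T5.

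The marker genes were all detected at low to moderate levels, and edgeR called none of them in any comparison of DSS with control. Their summed level lay between 44.8 and 82.1 CPM for CTRL, between 85.8 and 180 CPM for T1, between 47.8 and 171 CPM for T3 and between 63.4 and 118 CPM for T5. Csf1r alone averaged 28.8 CPM in CTRL and 48.9 CPM in T1 and weighed most in these sums. Every T1 sum lay above every CTRL sum, at the closest 85.8 against 82.1 CPM. Summed fibroblast markers were separate in the same way, at 509 to 567 CPM in T1 and 344 to 508 CPM in CTRL, while endothelial markers summed to 197 to 491 CPM in T1 and 105 to 231 CPM in CTRL. Their part in the marker gene sums was not tested. T3 replicate 4 had a marker gene sum of 171 CPM and the other T3 libraries at most 61.6 CPM. In a bulk sample, fewer or more macrophages and less or more RNA per macrophage cannot be told apart. Compared per kilobase of exon in CTRL, where gene length no longer sets the order, Pf4 was highest at 10.2 ± 2.81 CPM per kb (SD, n = 5), followed by Csf1r at 4.98 ± 1.03 and Cbr2 at 2.58 ± 0.991 CPM per kb. Mrc1 at 1.16 ± 0.31, Ms4a7 at 1.0 ± 0.342, Folr2 at 0.79 ± 0.259, F13a1 at 0.729 ± 0.233 and Stab1 at 0.606 ± 0.297 CPM per kb came next. Lyve1 at 0.334 ± 0.331 and Cd163 at 0.314 ± 0.341 CPM per kb were lowest. The ranges of neighbours in this order overlapped across the 5 CTRL libraries. Within libraries, Pf4 was above Csf1r, Csf1r above Cbr2 and Cbr2 above Mrc1 per kilobase in 5 of 5. From Mrc1 down, a gene was above the next in only 2 to 4 of the 5, so the order there did not hold in every library. The marker genes were variable for this tissue: the pooled within-group SD of log2(CPM + 0.5) was 0.42 for Ms4a7 and 0.98 for Lyve1 and Cd163, with the others between, against a median of 0.31 over all genes tested.

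**Figure D1:**
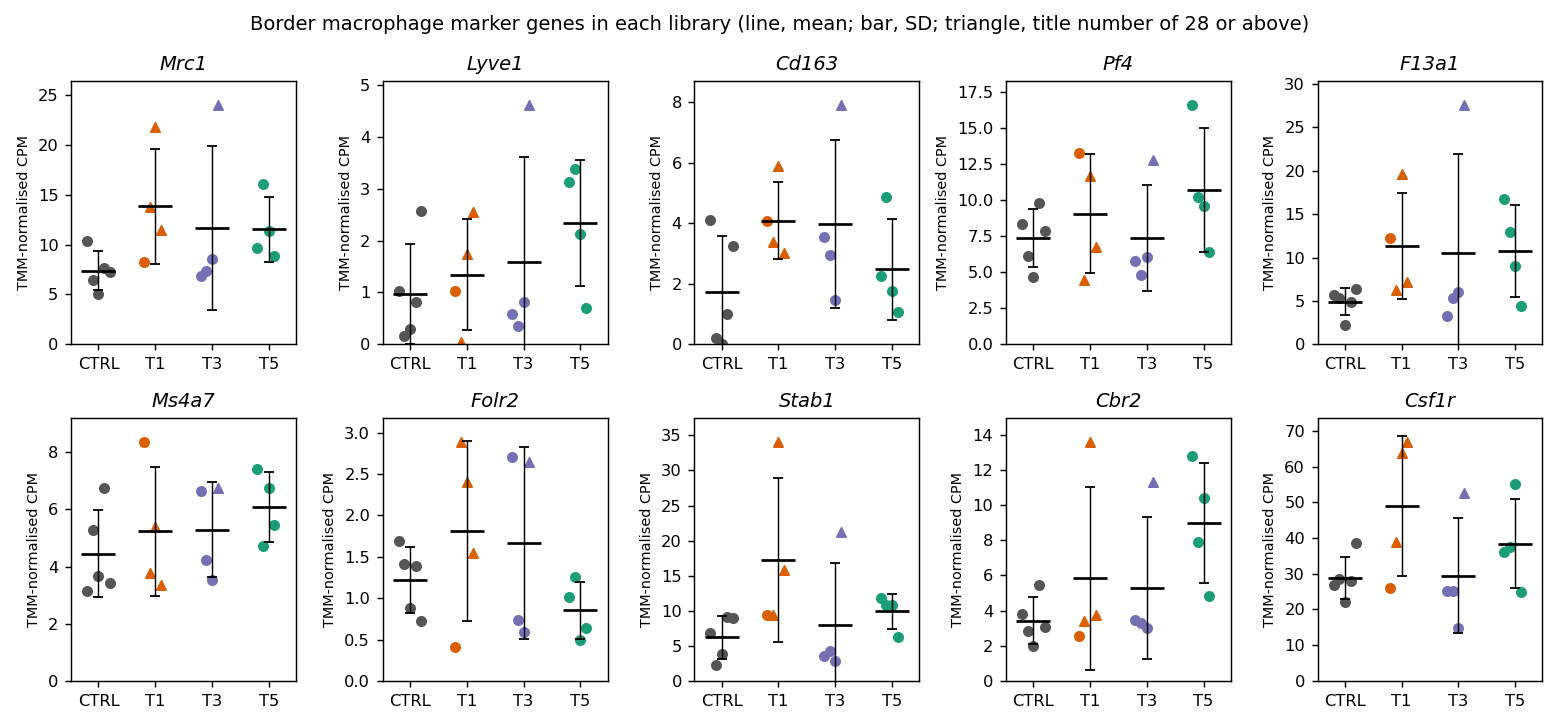
TMM-normalised CPM of the 10 marker genes in each library (y axes, linear, one panel per gene) for CTRL (n = 5), T1, T3 and T5 (n = 4 each); thick lines are means, bars are SD, and triangles are the 4 libraries with title numbers of 28 or above. The triangle in T3 is the highest T3 point in 9 of the 10 panels, and T1 and CTRL are fully separate only for Stab1.

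After 1 day of DSS all 10 marker genes had a positive fold change against CTRL, with a median of 0.77, but none passed the test. edgeR called 0 genes of the 16851 (0.0%) at an adjusted p under 0.05. At an unadjusted p under 0.05, 4 of the 10 were higher in T1, Mrc1, Stab1, Csf1r and F13a1, beside 9.43% of all genes tested. The median of all genes was 0.08 and 57.7% of them had a positive fold change. DESeq2 called none of the 8 marker genes to which it gave an adjusted p and 701 genes (4.16%). limma-voom with sample quality weights called 4 marker genes, Mrc1, Cd163, Stab1 and Csf1r, and 4140 genes (24.6%). edgeR without T1 replicate 1 called 2203 genes and without T3 replicate 4 called 717, none of them a marker gene. With a term for the title numbers of 28 and above the median over the marker genes was -0.0335, and 5 of the 10 had a negative fold change. With a brain marker covariate the median was 0.44. At an unadjusted p under 0.05 by edgeR, 0 of the 10 were higher in T1 with the title number term, beside 1.79% of all genes. With the brain marker covariate it was also 0 of the 10, beside 6.37%.

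After 3 days of DSS the fold changes against CTRL were again all positive, with a median of 0.53 against 0.02 over all genes, of which 52.7% were positive, and this depended on a single library. edgeR called 0 genes (0.0%), and 0 marker genes had an unadjusted p under 0.05, beside 3.2% of all genes that were higher in T3 at that level. Without T3 replicate 4 the median was -0.0389, and 6 of the 10, Pf4, Lyve1, Cbr2, F13a1, Stab1 and Csf1r, had a negative fold change. DESeq2 called 2 genes (0.0119%) and limma-voom 0 (0.0%), with no marker gene among them.

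At T5, after 3 days of DSS and 2 days of water, 9 of the 10 marker genes had a positive fold change against CTRL, with a median of 0.59 against 0.02 over all genes, of which 54.5% were positive. Folr2 alone was negative. edgeR called 0 genes (0.0%), DESeq2 12 (0.0712%) and limma-voom 0 (0.0%), with no marker gene among them. At an unadjusted p under 0.05 only Cbr2 was higher in T5, beside 3.89% of all genes. The T5 median was 0.39 with a brain marker covariate, and 0.47 to 0.77 when each library was left out in turn.

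**Figure D2:**
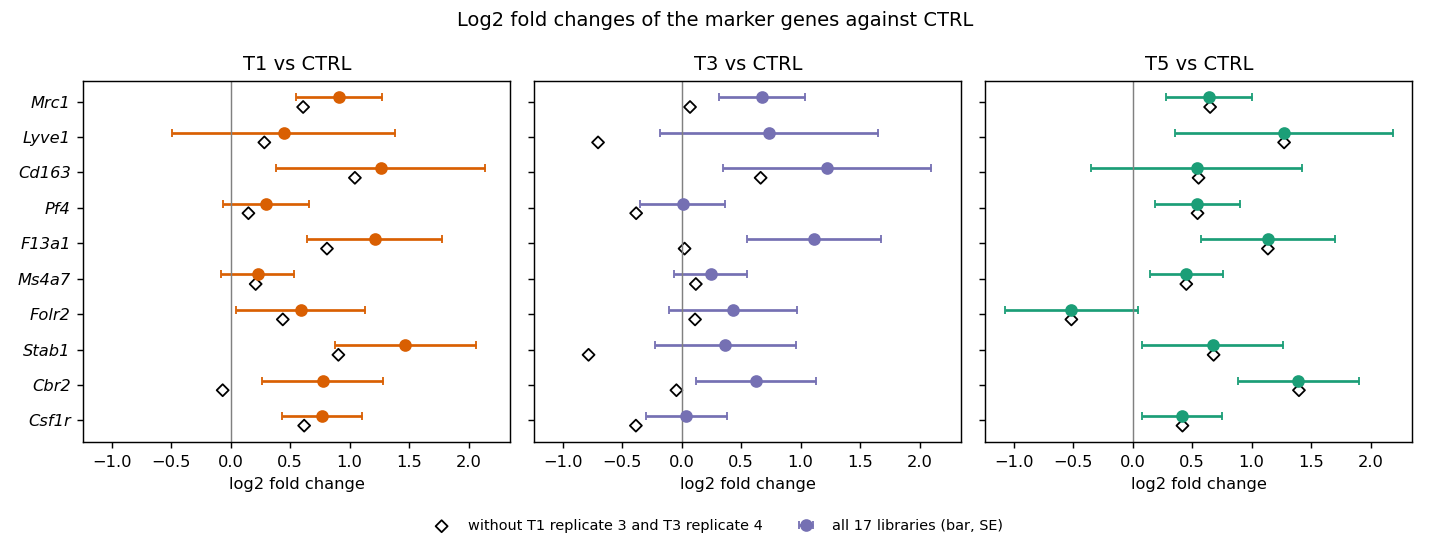
Log2 fold changes of the 10 marker genes (rows) in T1, T3 and T5 against CTRL (x axis, log2 scale); filled circles are the fit with all 17 libraries and bars are standard errors, and open diamonds are the fit without T1 replicate 3 and T3 replicate 4. In the T3 panel the diamonds of Pf4, Lyve1, Cbr2, Stab1 and Csf1r lie below 0, and in the T5 panel the diamonds lie on the circles. Neither library left out belongs to T5 or CTRL, so that fit could hardly change the T5 panel.

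Mrc1, the mannose receptor that binds and internalises glycoproteins, was measured at 10.4, 6.49, 5.00, 7.68 and 7.29 CPM in CTRL, 8.27, 13.8, 21.8 and 11.5 CPM in T1, 6.84, 7.37, 8.58 and 24 CPM in T3, and 9.70, 16.1, 11.4 and 8.84 CPM in T5. T1 libraries lay higher than most CTRL libraries, with 3 of 4 above the highest CTRL value, whereas in T3 only replicate 4 did. The fold change was 0.91 ± 0.36 (SE) for T1 against CTRL (edgeR, unadjusted p = 0.0219, adjusted p = 0.18). The 3 T1 libraries above every control were those with high title numbers, and the fold change was -0.11 with a term for the title numbers and 0.15 without those libraries. It was 0.67 ± 0.36 for T3 (edgeR, adjusted p = 0.911), and 0.04 without T3 replicate 4. For T5 it was 0.64 ± 0.36 (edgeR, adjusted p = 0.701) and 0.29 with a brain marker covariate, with all 4 libraries above the CTRL mean of 7.37 CPM.

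Stab1, which encodes the scavenger receptor stabilin-1, had the largest fold change of the marker genes at day 1 with all libraries in the fit, and it was the only one whose T1 and CTRL libraries did not overlap. Its levels were 9.39, 9.45, 34.1 and 15.8 CPM in T1, against 6.89, 2.30, 3.87, 9.07 and 9.03 CPM in CTRL. Among all genes tested, 2.9% were non-overlapping and higher in T1. T1 replicate 3 was far above the others, and T1 replicates 1 and 2 were just above the highest control. The fold change was 1.47 ± 0.59 (SE; edgeR, unadjusted p = 0.0251, adjusted p = 0.186), and 0.90 without T1 replicate 3, where Cd163 had the larger value of 1.02. It was 0.0479 with a term for the title numbers and 0.58 without the libraries that have high ones. limma-voom gave 1.87 with an adjusted p of 0.0108. In T3 the levels were 3.56, 4.26, 2.79 and 21.2 CPM, so that 3 of 4 libraries lay within the lower part of the CTRL range. The T3 fold change against CTRL was 0.37 ± 0.59 with all libraries and -0.81 without T3 replicate 4. In T5 the levels were 11.8, 10.8, 10.8 and 6.22 CPM, with 3 of 4 above every control, and the fold change was 0.67 ± 0.59 (edgeR, adjusted p = 0.845) and 0.20 with a brain marker covariate. Stab1 is also an endothelial gene, and 10 endothelial markers, Kdr among them, summed to 197 to 491 CPM in T1 and 105 to 231 CPM in CTRL. Of these 10, 8 had an unadjusted p under 0.05 and none an adjusted p under 0.05 by edgeR. The part of endothelial RNA in the Stab1 level was not tested.

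Cd163, the receptor that clears haemoglobin bound to haptoglobin, was the least even marker gene among the controls. Its CTRL levels were 4.12, 0.202, 0, 1.01 and 3.25 CPM, and CTRL replicate 3 had 0 reads, where 3 reads would be 0.126 CPM. The T1 levels were 4.08, 3.38, 5.89 and 3.0 CPM, the T3 levels 3.56, 2.95, 1.46 and 7.91 CPM and the T5 levels 2.24, 4.88, 1.77 and 1.05 CPM. All T1 libraries lay above the CTRL mean of 1.72 CPM but only 1 above the highest control. The fold change was 1.26 ± 0.88 (SE) for T1, 1.22 ± 0.88 for T3 and 0.54 ± 0.88 for T5 against CTRL (edgeR, adjusted p = 0.406, 0.911 and 0.928). limma-voom gave 3.54 for T1 against CTRL with an adjusted p of 0.0145. With a term for the title numbers edgeR gave 0.69, and without the libraries that have high ones 1.25.

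Lyve1, a hyaluronan receptor, varied 113-fold between its lowest and highest library. CTRL levels were 1.02, 0.161, 0.294, 0.819 and 2.58 CPM, and T1 levels were 1.02, 0.0407, 1.75 and 2.55 CPM, of which the second rested on 1 read. T3 levels were 0.578, 0.349, 0.822 and 4.62 CPM, and T5 levels were 3.14, 3.39, 2.13 and 0.698 CPM. The groups overlapped throughout, although 2 of 4 T5 libraries lay above the highest control. The T5 fold change was 1.27 ± 0.92 (SE; edgeR, adjusted p = 0.798), those for T1 and T3 were 0.45 ± 0.94 and 0.74 ± 0.92, and that for T3 was -0.74 without T3 replicate 4. Prox1, Flt4, Pdpn, Reln and Mmrn1, which with Ccl21a made up the lymphatic endothelial markers, summed to 64.0 to 92.1 CPM in T5 and 47.6 to 67.1 CPM in CTRL, and Ccl21a was at 0 in every library. Their part in the Lyve1 level was not tested.

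Folr2, the folate receptor beta of macrophages, had levels of 1.69, 1.41, 0.883, 1.39 and 0.729 CPM in CTRL, 0.408, 2.89, 2.40 and 1.55 CPM in T1, 2.70, 0.737, 0.594 and 2.64 CPM in T3, and 1.01, 1.26, 0.497 and 0.640 CPM in T5. It rested on 4 to 71 reads a library. It was the only marker gene with a negative fold change at T5, -0.52 ± 0.56 (SE; edgeR, adjusted p = 0.883), and those for T1 and T3 were 0.59 ± 0.54 and 0.43 ± 0.54. The groups overlapped at every time. Folr2 lies beside Folr1, a related gene of the choroid plexus epithelium, and how reads shared by the pair were counted is not given in the sources used here, so the Folr2 level is uncertain.

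Csf1r, the receptor kinase for CSF1 and IL34 on which macrophages depend, had the most counts of the marker genes. Its levels were 26.8, 28.4, 22.2, 28 and 38.5 CPM in CTRL, 26.1, 39.0, 63.7 and 67.0 CPM in T1, 25.1, 25.3, 14.9 and 52.6 CPM in T3, and 36.2, 37.4, 55.1 and 24.9 CPM in T5. In T1 the 3 libraries above the highest control were the 3 with title numbers of 28 or above, and T1 replicate 1 was within the CTRL range. The T1 fold change was 0.77 ± 0.34 (SE; edgeR, unadjusted p = 0.0366, adjusted p = 0.209), and it was -0.20 with a term for the title numbers. At T3 it was 0.04 ± 0.34 (edgeR, adjusted p = 0.989), and at T5 it was 0.42 ± 0.34 (edgeR, adjusted p = 0.822) and 0.02 with a brain marker covariate. Microglia, the macrophages of brain tissue, also carry Csf1r. P2ry12 and 10 other microglial markers summed to 120 to 187 CPM in T1, 123 to 165 CPM in T3 and 136 to 270 CPM in T5, against 106 to 160 CPM in CTRL, and none of the 11 was at 0 in any group. Their part in the Csf1r level was not tested. The ligand genes gave no call either: Csf1 averaged 17.2 ± 9.44 CPM in T1 and 10.8 ± 1.4 CPM in CTRL (SD; edgeR, adjusted p = 0.277), and Il34 averaged 8.8 ± 4.17 CPM in T5 and 5.25 ± 1.95 CPM in CTRL (edgeR, adjusted p = 0.751).

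Pf4, the chemokine CXCL4, had levels of 8.36, 6.09, 4.63, 9.82 and 7.85 CPM in CTRL, 13.3, 4.48, 11.7 and 6.74 CPM in T1, 5.78, 4.77, 6.07 and 12.8 CPM in T3, and 16.6, 10.2, 9.58 and 6.4 CPM in T5. The groups overlapped, and T5 replicate 1 was the highest of the 17 libraries. Fold changes against CTRL were 0.29 ± 0.36 (SE) for T1, 0.01 ± 0.36 for T3 and 0.54 ± 0.36 for T5 (edgeR, adjusted p = 0.642, 0.997 and 0.755), and that for T3 was -0.41 without T3 replicate 4. F13a1 encodes the A subunit of coagulation factor XIII, which cross-links fibrin. Its levels were 5.65, 5.32, 2.27, 4.91 and 6.39 CPM in CTRL, 12.3, 6.31, 19.6 and 7.19 CPM in T1, 3.28, 5.35, 6.03 and 27.6 CPM in T3, and 16.8, 12.9, 9.08 and 4.36 CPM in T5. In both T1 and T5, 3 of 4 libraries lay above every control. The fold change was 1.21 ± 0.57 (SE) for T1 (edgeR, unadjusted p = 0.0491, adjusted p = 0.235) and 1.14 ± 0.57 for T5 (edgeR, unadjusted p = 0.0619, adjusted p = 0.657). For T3 it was 1.11 ± 0.56 with all libraries and -0.0025 without T3 replicate 4.

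Platelet RNA was examined because platelets carry Pf4 and F13a1. The 8 platelet markers summed to 15.2 to 21.3 CPM in T1, 12.3 to 18.4 CPM in T3 and 10.4 to 22 CPM in T5, against 14.3 to 22.3 CPM in CTRL, and none was at 0 in every library of a group. Itga2b alone made up most of these sums, which therefore say little about the other platelet markers. Ppbp, another chemokine gene of platelets, averaged 2.49 ± 2.0 CPM in T1, 1.86 ± 1.27 CPM in T3 and 2.92 ± 1.73 CPM in T5, against 3.13 ± 1.47 CPM in CTRL (SD). Of the 5 platelet markers that were tested, 2 had a positive fold change at T1, 1 at T3 and 1 at T5. At an unadjusted p under 0.05 by edgeR, 1 of the 5 was higher in T1, beside 9.43% of all genes tested. Across the 17 libraries Ppbp and Pf4 had r = 0.65 and rho = 0.61 (permutation, adjusted p = 0.033 and 0.055 over 70 relations), r = 0.72 without the 2 libraries farthest from the Ppbp median and 0.595 in the 13 libraries with title numbers under 28. The part of platelets in the Pf4 and F13a1 levels was not tested.

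Cbr2, a carbonyl reductase, was the marker gene with the largest fold change at T5. Its levels were 12.8, 7.87, 10.4 and 4.83 CPM in T5, against 3.78, 2.82, 1.98, 5.48 and 3.08 CPM in CTRL. All 4 T5 libraries lay above the CTRL mean of 3.43 CPM and 3 of 4 above every control, so the groups overlapped by T5 replicate 4. The fold change was 1.39 ± 0.51 (SE; edgeR, unadjusted p = 0.0142, adjusted p = 0.598), and it ran from 1.04 to 1.62 over the alternatives tried. Its T1 levels were 2.55, 3.42, 13.6 and 3.73 CPM and its T3 levels 3.47, 3.30, 3.01 and 11.3 CPM, each with 1 library far above the rest. The T1 fold change was 0.77 ± 0.51 and -0.07 without T1 replicate 3, and the T3 fold change was 0.63 ± 0.51 and -0.08 without T3 replicate 4. Ms4a7, a membrane protein of the MS4A family, was the most even of the 10. Its levels were 3.16, 5.28, 3.66, 6.74 and 3.42 CPM in CTRL, 8.37, 3.79, 5.38 and 3.37 CPM in T1, 6.65, 4.23, 3.52 and 6.76 CPM in T3, and 7.41, 4.72, 6.74 and 5.47 CPM in T5. The groups overlapped throughout, and the fold changes against CTRL were 0.23 ± 0.31 (SE), 0.24 ± 0.31 and 0.45 ± 0.31 for T1, T3 and T5 (edgeR, adjusted p = 0.684, 0.922 and 0.775).

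**Figure D3:**
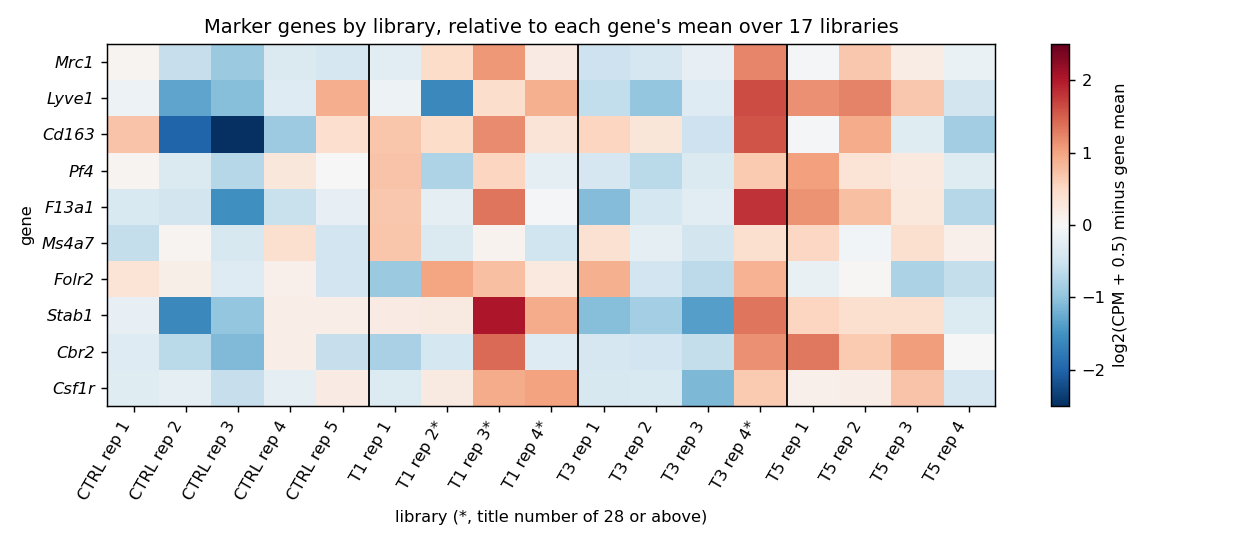
Level of each marker gene (rows) in each of the 17 libraries (columns, grouped CTRL, T1, T3, T5), as log2(CPM + 0.5) minus the mean of the gene over the 17 libraries; an asterisk marks a title number of 28 or above. T3 replicate 4 and T1 replicate 3 are high for most rows, CTRL replicates 2 and 3 are low for most rows, and Ms4a7 and Folr2 follow their own pattern.

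Between the DSS groups, 8 of the 10 marker genes had a negative fold change for T3 against T1, with a median of -0.15 against -0.02 over all genes, of which 48.0% were positive. edgeR called 0 genes (0.0%) between T3 and T1, and 0 marker genes had an unadjusted p under 0.05, beside 4.63% of all genes that were lower in T3. Stab1 at -1.10 ± 0.63 (SE) and Csf1r at -0.73 ± 0.36 were furthest from 0 (edgeR, adjusted p = 0.58 and 0.577). limma-voom called 3 marker genes lower in T3, Mrc1, Stab1 and Csf1r, and 4130 genes (24.5%), and DESeq2 called 16 genes (0.0949%) with no marker gene among them. Without T3 replicate 4 the median was -0.87. Between T5 and T3, 7 of the 10 had a positive fold change, with a median of 0.26 against 0.01 over all genes, of which 50.9% were positive. edgeR called 0 genes (0.0%), and 0 marker genes had an unadjusted p under 0.05, beside 4.31% of all genes that were higher in T5. DESeq2 called 80 genes (0.475%) and limma-voom 0 (0.0%), with no marker gene among them. Folr2 at -0.95 ± 0.59 and Cbr2 at 0.77 ± 0.54 were furthest from 0 (edgeR, adjusted p = 0.553 and 0.596). Without T3 replicate 4 the median was 0.89, and with a brain marker covariate it was 0.0155. These comparisons share the T3 libraries with each other and with the comparison against CTRL, so their fold changes are not separate evidence.

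Other macrophage genes were set beside the marker genes at T5, and none passed the adjusted test. Of 16 genes shared by macrophages of many tissues, 16 had a positive fold change at T5 against CTRL and 11 had an unadjusted p under 0.05, with a median of 0.79, beside 54.5% positive and 3.89% higher at the unadjusted level among all genes. Without T5 replicate 3 the count at the unadjusted level was 5 of 16, and with a brain marker covariate it was 7. That library had the highest T5 sums of these genes at 626 CPM, of microglial markers at 270 CPM, of oligodendrocyte markers at 16600 CPM and of astrocyte markers at 1120 CPM. Microglia also make many of these genes, Tyrobp and C1qb among them, and their markers summed to 136 to 270 CPM in T5 and 106 to 160 CPM in CTRL. The part of microglia in these levels was not tested beyond these fits. Tyrobp, a signalling adaptor, averaged 20.8 ± 8.45 CPM in T5 and 11.4 ± 2.1 CPM in CTRL (SD, n = 4 and 5; edgeR, adjusted p = 0.521), and Fcgr3, an Fc receptor, averaged 16 ± 5.39 CPM in T5 and 8.42 ± 2.39 CPM in CTRL (edgeR, adjusted p = 0.568). C1qb, of the complement component C1q, averaged 89.0 ± 31.5 CPM in T5 and 48.2 ± 10.7 CPM in CTRL (edgeR, adjusted p = 0.568). All 4 T5 libraries were above every control for Tyrobp, Fcgr3 and Fcer1g, as for 0.985% of all genes tested. At T1 the same list had 16 positive fold changes with a median of 0.31 and 2 genes at an unadjusted p under 0.05, Laptm5 and Adgre1, the F4/80 gene. At T3 its median was -0.13 and none was at that level.

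Of 18 further genes named for border macrophages, 17 were tested, and 14 of these had a positive fold change at T5, with a median of 0.82. At an unadjusted p under 0.05, 3 were higher in T5. Among all genes 54.5% were positive and 3.89% were higher at that level. With a brain marker covariate the median was 0.40 and 2 genes were higher at that level. Ccl8, a chemokine, averaged 1.73 ± 1.28 CPM in T5 and 0.289 ± 0.265 CPM in CTRL (SD; edgeR, adjusted p = 0.587), Ms4a6b averaged 6.24 ± 0.763 CPM in T5 and 2.99 ± 0.796 CPM in CTRL (edgeR, adjusted p = 0.598), and Ms4a6c averaged 3.73 ± 0.56 CPM in T5 and 2.07 ± 0.962 CPM in CTRL (edgeR, adjusted p = 0.614). For the Ms4a6b and Ms4a6c pair every T5 library lay above every control, as for 0.985% of all genes tested, but related MS4A genes can share reads. Dab2, an endocytic adaptor, was lower at T5 at 212 ± 23.9 CPM, against 260 ± 35.1 CPM in CTRL (edgeR, unadjusted p = 0.0441, adjusted p = 0.631). Its CTRL mean was above the CTRL sums of the marker genes, 44.8 to 82.1 CPM, and the part of other cells in it was not tested. Spi1, which encodes PU.1, averaged 5.01 ± 2.51 CPM in T5 and 2.31 ± 1.03 CPM in CTRL (edgeR, unadjusted p = 0.0434, adjusted p = 0.631), and it was the only one of 13 tested genes for macrophage identity and survival at that level.

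MHC class II genes, which mark the other class of border macrophage and also dendritic cells, were set beside the markers. At T5, 7 of 7 had a positive fold change and 6 had an unadjusted p under 0.05, with a median of 0.84, beside the 54.5% and 3.89% of all genes. The count at that level was also 6 without T5 replicate 3 and with a brain marker covariate. H2-Ab1 averaged 78.2 ± 21.9 CPM in T5 and 43.1 ± 11.8 CPM in CTRL (SD; edgeR, adjusted p = 0.521) and Cd74, the invariant chain, averaged 137 ± 43.5 CPM in T5 and 74.1 ± 25.2 CPM in CTRL (edgeR, adjusted p = 0.521). Each had all 4 T5 libraries above every control, which held for 0.985% of all genes. At T1 the median was -0.10 and 4 of the 7 were negative, although Ciita, their transactivator, averaged 1.82 ± 0.13 CPM in T1 and 0.804 ± 0.28 CPM in CTRL (edgeR, unadjusted p = 0.00488, adjusted p = 0.138). Dendritic cell markers summed to 7.96 to 23.1 CPM in T1, 7.87 to 18.4 CPM in T3 and 6.75 to 11.4 CPM in T5, against 9.19 to 13.3 CPM in CTRL. Monocyte markers, of which 5 of 8 were tested, summed to 9.29 to 29.4 CPM in T1, 5.30 to 153 CPM in T3 and 4.48 to 40.9 CPM in T5, against 1.93 to 14.0 CPM in CTRL. The 153 CPM belong to T3 replicate 4 and came mostly from Fn1, which averaged 41.6 ± 68.9 CPM in T3 and 3.81 ± 3.04 CPM in CTRL (edgeR, unadjusted p = 0.0116, adjusted p = 0.911). Fn1 is also a fibroblast gene. Of the 5 monocyte markers tested, 4 had a positive and 1 a negative fold change at T5 against CTRL, with a median of 0.57, and 0 had an unadjusted p under 0.05. Ccr2, the receptor of inflammatory monocytes, went against most of this list. It averaged 0.838 ± 0.161 CPM in T5 and 1.37 ± 0.865 CPM in CTRL (edgeR, adjusted p = 0.813). The part of these cells in the levels of the marker genes was not tested.

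To ask whether the make-up of the macrophage signal differed, 4 log2 ratios of marker pairs were compared within libraries, each over T1, T3 and T5 against CTRL. Both members of a pair had 0.5 CPM added. None of the 12 comparisons passed (two-sided exact permutation test, adjusted p from 0.381 to 0.984), and the smallest p that 4 against 5 libraries allow is 0.0159. A single comparison among 12 could therefore not go below an adjusted p of 0.19, and the test could not have called one alone. Cd163 over H2-Aa, which sets the scavenger class against the MHC class II class, was -2.70 ± 0.79 in T1 and -4.52 ± 1.54 in CTRL (SD), a difference of 1.82 (exact permutation p = 0.103, adjusted p = 0.381). At T5 the same ratio was -4.57 ± 1.09, against -4.52 ± 1.54 in CTRL, a difference of -0.06 (exact permutation p = 0.944). Over the alternatives tried, the T1 difference of this ratio ran from 1.09 to 2.54. Lyve1 over H2-Aa, which sets the same classes against each other, differed by 0.58, 0.02 and 0.19 at T1, T3 and T5 from CTRL (exact permutation p = 0.484, 0.984 and 0.786). Mrc1 over P2ry12, which sets border macrophages against microglia, was 1.49 ± 0.31 in T3 and 0.76 ± 0.64 in CTRL, a difference of 0.73 (exact permutation p = 0.0714, adjusted p = 0.381). At T1 that difference was 0.94 (exact permutation p = 0.127), with 3 of 4 T1 libraries above every control. Mrc1 over Csf1r differed by 0.13, 0.56 and 0.23 at T1, T3 and T5 from CTRL (exact permutation p = 0.627, 0.127 and 0.429).

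**Figure D4:**
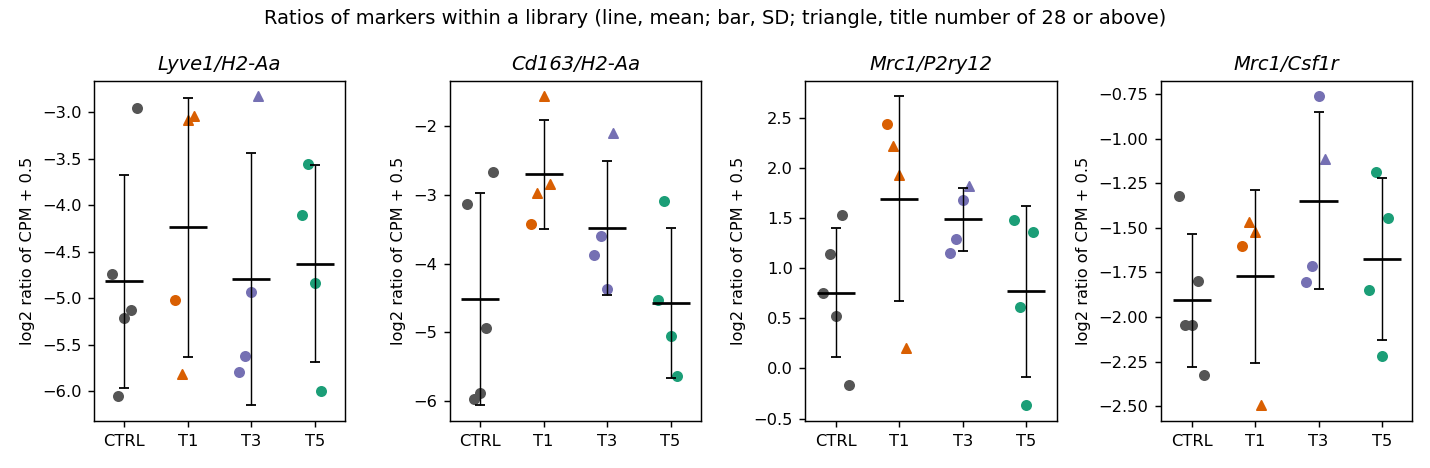
Log2 ratio of marker pairs within each library (y axes), (CPM + 0.5) over (CPM + 0.5), for CTRL (n = 5), T1, T3 and T5 (n = 4 each); thick lines are means, bars are SD, and triangles are libraries with title numbers of 28 or above. For Cd163 over H2-Aa the T1 mean of -2.70 lies above the CTRL mean of -4.52, and 1 T1 library lies above the highest control. For Lyve1 over H2-Aa the T1 and CTRL means are -4.24 and -4.82.

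The marker genes varied together across the 17 libraries. Of their 45 pairs, 42 had a positive Pearson r of log2(CPM + 0.5), the median r was 0.58, and 24 pairs had an adjusted p under 0.05 (permutation test with 100000 resamples, adjusted over the 45 pairs). For 22 pairs the Spearman rho passed as well. The closest pair was Stab1 and Csf1r with r = 0.84 and rho = 0.81 (permutation, adjusted p = 0.00135 and 0.00297). Mrc1 and F13a1 had r = 0.82 and rho = 0.76, Pf4 and F13a1 r = 0.81 and rho = 0.74, and Mrc1 and Stab1 r = 0.81 and rho = 0.83 (permutation, adjusted p = 0.00135 for each r). With group means removed the median r was 0.59. It was 0.51 in the 13 libraries with title numbers under 28, and 0.53 when the 2 libraries farthest from the median of the first gene were left out. Without those 2 libraries Mrc1 and F13a1 had r = 0.64 and Stab1 and Csf1r r = 0.87. The libraries share tissue make-up and depth, and these enter every r. Pairs of genes outside the marker genes were not examined, so the count of pairs does not set the marker genes apart from other genes.

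**Figure D5:**
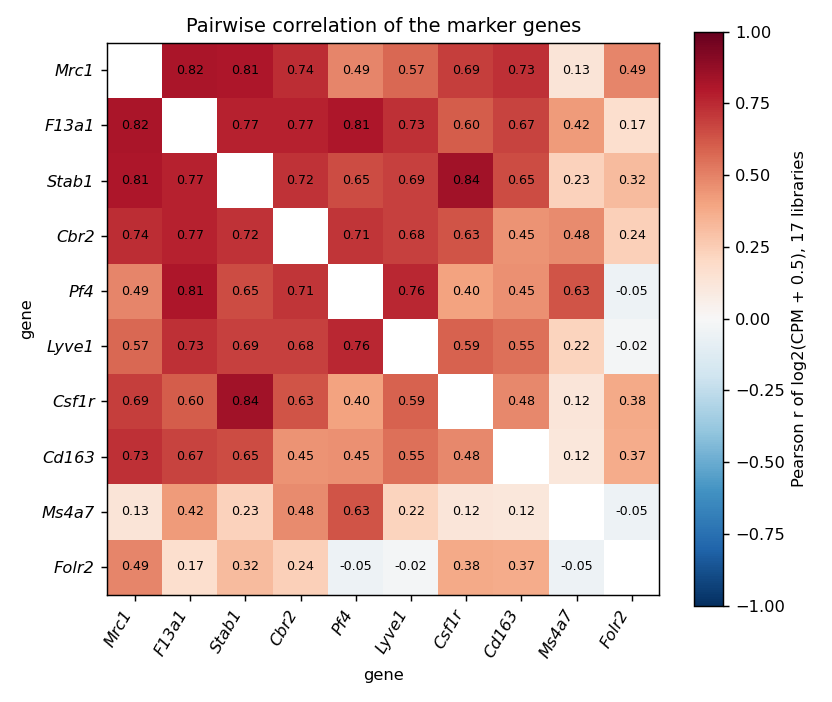
Pearson r of log2(CPM + 0.5) between each pair of the 10 marker genes over 17 libraries, with the genes in the same order in rows and columns. The block of 8 genes at the upper left holds values from 0.40 to 0.84, and the rows of Ms4a7 and Folr2 hold the 3 negative pairs.

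Ms4a7 and Folr2 stood apart from the other 8. Their median r with the other marker genes was 0.22 and 0.24, against 0.73 for F13a1, 0.69 for Mrc1 and 0.69 for Stab1. All 3 negative pairs, with r between -0.05 and -0.02, involve Folr2. Ms4a7 was closest to Pf4 among the marker genes at r = 0.63. With H2-Aa its r was 0.57 and rho 0.63 (permutation, adjusted p = 0.0781 and 0.0546 over 70 relations with markers of other cells, which were chosen after the values were seen). Over the 17 libraries the next highest r with H2-Aa was 0.15, for Pf4. In the 13 libraries with title numbers under 28 it was 0.70 for Ms4a7, 0.62 for Cbr2 and 0.41 for Mrc1, and lowest for Folr2 at -0.005. Without the 2 libraries farthest from the H2-Aa median it was 0.73 for Ms4a7, 0.50 for Cbr2 and 0.43 for Pf4, and lowest for Folr2 at -0.185. In these smaller sets the relation was therefore not particular to Ms4a7.

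In the same family of 70 relations, 14 had an adjusted p under 0.05 for Pearson's r, and they involved 6 of the marker genes: Csf1r, Mrc1, Stab1, F13a1, Lyve1 and Pf4. Csf1r had r = -0.77 and rho = -0.775 with Ttr, the transthyretin gene of the plexus epithelium (permutation, adjusted p = 0.0098 and 0.0203). Without the 2 libraries farthest from the median of Ttr r was -0.665, and in the 13 libraries with title numbers under 28 it was -0.49. With P2ry12, Csf1r had r = 0.68 and rho = 0.59 (permutation, adjusted p = 0.0273 and 0.063), and r = 0.67 without the 2 farthest libraries and 0.72 in the 13. Its r was 0.70 both with Kdr and with the oligodendrocyte gene Mbp (permutation, adjusted p = 0.0238 for each). In the 13 libraries these were 0.30 and 0.69. F13a1 had r = 0.77 and rho = 0.75 with the fibroblast gene Col1a2 (permutation, adjusted p = 0.0098 and 0.0203), and r = 0.77 and 0.78 in the same smaller sets. Mrc1 had r = 0.73 and rho = 0.67 with Col1a2 (permutation, adjusted p = 0.0238 and 0.0428), with r = 0.61 and 0.45 in the smaller sets, so the relation was weaker outside the high title numbers. Stab1 had r = 0.64 and rho = 0.52 with the endothelial gene Kdr (permutation, adjusted p = 0.033 and 0.11), with r = 0.51 and 0.12, and it did not hold in the 13 libraries. Lyve1 had r = 0.65 and rho = 0.63 with P2ry12 (permutation, adjusted p = 0.033 and 0.0546), with r = 0.60 in both smaller sets. Ttr, which alone held between 6.61 and 13.6% of a library's counts, had a negative r with 9 of the 10 marker genes. The part of tissue make-up in the levels of the marker genes was not tested beyond the brain marker covariate.

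Among 13018 other genes that averaged 1 CPM or more, those whose pattern over the 17 libraries was most like the mean z-score of the marker genes included Mgl2, Gbp9, Tgm2, Pros1, Nrros, Slc7a2 and Pglyrp1. Mgl2, a C-type lectin of macrophages, had a Pearson r of 0.92, and 0.84 in the 13 libraries with title numbers under 28. Tgm2, tissue transglutaminase, had 0.90. Pros1, the anticoagulant protein S and a ligand of TAM receptors, had 0.89 and ran from 9.5 to 53.1 CPM, with its highest value in T3 replicate 4. Lama1, the fibroblast marker Col1a1 and Cav1 were close behind at 0.86, 0.85 and 0.85, so the pattern was not confined to macrophage genes. The r values are a description over 17 libraries that share depth and tissue make-up.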

How the data were processed

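Gene counts of whole choroid plexus were analysed in 17 libraries, 5 of CTRL and 4 each of T1, T3 and T5, grouped by the submitters' time point labels. The authors deposited raw counts per Ensembl gene. Trimmomatic 0.39, STAR 2.6.1b, featureCounts 1.6.4 and the build GRCm38 are named in the submitters' processing notes. The handling of multimapping reads is not given in the sources used here. The kit does not keep the strand of RNA, so reads from overlapping or antisense genes cannot be told apart.

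Identifiers were matched to GENCODE M21 (55394 of 55487, 93 not). The 10 marker genes and the lists set beside them were chosen with earlier results of these data known. The test of the counts was the robust quasi-likelihood fit of edgeR 4.0.16, run in R 4.3.3 (TMM, filterByExpr by group, 1 mean per group, Benjamini-Hochberg over 16851 genes, threshold 0.05). The common dispersion of 0.141 corresponds to a biological coefficient of variation of 37.6%. The standard error of a fold change is its size over the square root of F, an approximation. Alternatives were DESeq2 1.42.0, limma-voom with quality weights (limma 3.58.1), DESeq2's size factors, no filter, only the groups compared, a term for or removal of title numbers of 28 and above, a brain marker covariate, and leaving out each library. Simulated counts with known changes were used to test the scripts.

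Log values are log2(CPM + 0.5), where CPM was computed from the deposited counts. All 10 marker genes are named in each comparison against CTRL. From each other list up to 4 genes with the smallest p and a mean of at least 1 CPM could be named, and other named genes were chosen after their values were seen. One result on genes of like pattern is not reported here. Libraries of a group differed far beyond counting noise (chi-square per gene 8.11 to 124), so none was the same library deposited again. The labels do not say that libraries came from separate animals, so p-values measure the spread between these samples, which may be technical. The limit from a count of 0 is 3 counts and covers counting error only.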

Additional observations from a re-analysis of the deposited data

Results flagged for a closer look

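Among 40 combinations of a marker gene and a group, 7 had a library whose gap to its nearest neighbour took more of the group's range than Dixon's 95% critical value allows. Chance alone flags about 1 in 20 groups. Over all genes tested 9.28% of the combinations had such a library, as did 14.5% of genes in T3, where replicate 4 was that library, and the highest, for 10.2%. The 10 genes are not independent of each other. In T3 this was replicate 4, as the highest library, for 6 of the 10 genes: Mrc1 at 24 CPM, Lyve1 at 4.62 CPM, Pf4 at 12.8 CPM, F13a1 at 27.6 CPM, Stab1 at 21.2 CPM and Cbr2 at 11.3 CPM. In T1 it was replicate 3 for Cbr2 at 13.6 CPM. Both libraries carry title numbers of 28 or above. T3 replicate 4 also held 923 CPM of summed fibroblast markers, against at most 501 CPM in the other T3 libraries, and 153 CPM of summed monocyte markers, against at most 15.9 CPM. T1 replicate 3 held 491 CPM of summed endothelial markers and 53.3 CPM of summed neutrophil markers, the highest of the 17 libraries for both. The part of these cells in the high levels was not tested.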

How the results depend on the processing

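No paired analysis was possible because the labels carry no replicate numbers that groups share. The spread used for the median fold change of the marker genes was 0.548, the pooled within-group SD of their mean log2 CPM. It measures differences between libraries and is not the error of a median fold change. The median moved beyond its spread in these fits. With a term for title numbers of 28 and above it was -0.0335 for T1 and -0.0428 for T3 against CTRL. Without those 4 libraries it was -0.0255 for T3 against CTRL and 0.88 for T5 against T3. With limma-voom it was -0.91 for T3 against T1. The brain marker covariate, which moved it by less than its spread, gave 0.44 for T1 and 0.39 for T5 against CTRL, -0.0029 for T3 against T1 and 0.0155 for T5 against T3. Leaving out libraries, it ran from -0.0389 to 0.75 for T3 against CTRL, from -0.87 to 0.0728 for T3 against T1, and from 0.0412 to 0.89 for T5 against T3. The ends at -0.0389, -0.87 and 0.89 were without T3 replicate 4. For T1 against CTRL it ran from 0.52 to 0.99, and for T5 against CTRL, where no fit moved it beyond its spread, from 0.47 to 0.77. CTRL and T5 hold no library with a title number of 28 or above. Fits with a term for those numbers, or without T1 or T3 libraries, could therefore hardly change T5 against CTRL.

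edgeR called 0 genes in each comparison. DESeq2 called 701 genes for T1, 2 for T3 and 12 for T5 against CTRL, 16 for T3 against T1 and 80 for T5 against T3, with no marker gene among them. limma-voom called 4140 genes and 4 marker genes for T1 against CTRL, and 4130 genes and 3 marker genes for T3 against T1. Leaving out 1 library, edgeR called 0 to 2203 genes for T1 against CTRL, the upper end without T1 replicate 1 and 717 without T3 replicate 4, 0 to 3 for T3 against T1, without T1 replicate 2 or T3 replicate 4, and 0 to 1 for T5 against T3, without T5 replicate 4. No marker gene was called in any of these fits.

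For single marker genes the fold changes whose sign turned are given in log2 units. With a term for title numbers of 28 and above, T1 against CTRL turned sign in Mrc1 (-0.11), Folr2 (-0.85), Lyve1 (-0.92), Cbr2 (-0.56) and Csf1r (-0.20). T3 against CTRL did so in Pf4 (-0.0809), Folr2 (-0.0609), Lyve1 (-0.30), Cbr2 (-0.0248), Stab1 (-0.57) and Csf1r (-0.38). T3 against T1 did so in Mrc1 (0.26), Cd163 (0.19), Folr2 (0.79), Cbr2 (0.54), F13a1 (0.0402) and Ms4a7 (-0.0510). T5 against T3 did so in Mrc1 (0.50). Without those 4 libraries, T1 against CTRL turned sign in Folr2 (-1.58), Cbr2 (-0.43) and Csf1r (-0.16). T3 against CTRL did so in Pf4 (-0.40), Lyve1 (-0.72), Cbr2 (-0.0615), Stab1 (-0.80) and Csf1r (-0.40). T3 against T1 did so in Folr2 (1.67), Lyve1 (-0.79), Cbr2 (0.37) and Ms4a7 (-0.79). T5 against T3 did so in Mrc1 (0.60). With the brain marker covariate, T1 against CTRL turned sign in Lyve1 (-0.29). T3 against CTRL did so in Csf1r (-0.0196). T3 against T1 did so in Mrc1 (0.0262), Cd163 (0.78), Cbr2 (0.15), F13a1 (0.0772) and Ms4a7 (-0.0321). T5 against T3 did so in F13a1 (-0.14) and Stab1 (-0.0088). With limma-voom, T1 against CTRL turned sign in Lyve1 (-0.0010). T3 against CTRL did so in Pf4 (-0.24), Folr2 (-0.18), Stab1 (-0.36) and Csf1r (-0.35). T3 against T1 did so in Ms4a7 (-0.0181). T5 against T3 did so in Mrc1 (0.42). With only the 2 groups compared in the model, T5 against T3 turned sign in F13a1 (-0.0050). Leaving out each library in turn, or T1 replicate 3 with T3 replicate 4, turned the sign of further fold changes, given here with their range over those fits. For T1 against CTRL these were Ms4a7 from -0.0960 to 0.42, Cbr2 from -0.0686 to 1.01 and Lyve1 from -0.0808 to 1.23. For T3 against CTRL these were Pf4 from -0.41 to 0.17, Csf1r from -0.41 to 0.26, Lyve1 from -0.74 to 1.49, Cbr2 from -0.0754 to 0.86, F13a1 from -0.0025 to 1.40 and Stab1 from -0.81 to 0.65. For T5 against CTRL these were Cd163 from -0.0387 to 1.16. For T3 against T1 these were Folr2 from -0.52 to 0.14, Lyve1 from -1.19 to 0.79, Ms4a7 from -0.15 to 0.34, Mrc1 from -0.88 to 0.0434, Cd163 from -0.64 to 0.24, Cbr2 from -0.86 to 0.68 and F13a1 from -1.21 to 0.28. For T5 against T3 these were F13a1 from -0.27 to 1.13 and Mrc1 from -0.23 to 0.60. For T5 against CTRL, Cd163 alone turned, without T5 replicate 2. The log2 ratio differences that turned sign in such fits ran for Cd163/H2-Aa in T5 against CTRL from -0.55 to 0.41, for Lyve1/H2-Aa in T3 against CTRL from -0.63 to 0.49, for Lyve1/H2-Aa in T5 against CTRL from -0.17 to 0.66 and for Mrc1/P2ry12 in T5 against CTRL from -0.22 to 0.39. With other pseudocounts Cd163 over H2-Aa for T5 against CTRL was 0.53 at 0.1 CPM, and Lyve1 over H2-Aa was -0.0396 for T3 and -0.0436 for T5 against CTRL at 1 CPM. Without the 4 high numbers Lyve1 over H2-Aa was -0.20 for T1 and -0.63 for T3 against CTRL. The cause was not tested in any of these cases. The fit without T1 replicate 3 and T3 replicate 4 together was chosen after seeing the data. Lyve1, Cd163 and Folr2 rest on 0 to 192 reads a library, which limits their precision.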

Other observations

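All 8 neuron markers were tested, and 8 had a positive fold change at T1 against CTRL, with a median of 1.65, while 2 had an unadjusted p under 0.05. Among all genes 57.7% were positive and 9.43% were higher at that level. With a term for title numbers of 28 and above, 3 of the 8 were positive. Their summed level was 94.1 to 344 CPM in T1 and 15.9 to 116 CPM in CTRL.

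Itga2b, the platelet integrin gene, averaged 9.69 ± 0.861 CPM for T1 and 9.65 ± 1.03 CPM for T3, against 11 ± 1.22 CPM for CTRL (SD, n = 4, 4 and 5), and made up most of the summed platelet markers.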
